A study of Bos taurus with 32 samples.

Results

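Metal handling in bovine liver around calving was followed through 5 genes, MT1A, CP, FTH1, SCARA5 and SLC11A1. They were taken as every probe set of the deposited array table annotated to these symbols, which gave 7 probe sets for 5 genes of the 24016 non-control probe sets and 9155 named genes measured. CP had 3 probe sets (Bt.12610.1.A1_at, Bt.22390.3.A1_at and Bt.22390.2.S1_at, called probe sets 1, 2 and 3 here, from bright to dim) and each other gene had 1 (MT1A, Bt.23042.1.S1_at. FTH1, Bt.5321.1.S1_at. SCARA5, Bt.12715.1.S1_at. SLC11A1, Bt.5373.1.S1_at). The genes were picked with earlier results on these arrays in view. MT1A, FTH1 and SCARA5 were picked for how they changed over the days, and the comparison behind the choice of CP and SLC11A1 is not recorded. Changes over the days are therefore described with their errors and carry no p-value. The diet values of CP and SLC11A1 carry no p-value either, and their intervals are a description.

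The animals were Ayrshire dairy cows. Over the 6 weeks up to predicted calving they ate a diet of controlled energy (CON) or one of high energy (HIGH). Biopsies of liver were taken 8 d before the predicted date (-8 d), 1 d after the cow had calved and again at 9 d, and RNA from them was hybridised to Affymetrix bovine expression arrays. CON cows gave 5 arrays at -8 d, 4 at 1 d and 6 at 9 d, and HIGH cows gave 5, 6 and 6. These 32 arrays came from 12 cows, 6 per diet, where the design text gives 16, and 8 cows (3 CON and 5 HIGH) had all 3 days. All cows, CON included, calved between the first and the second biopsy. Age and parity are not given in the sources used here.

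Metals such as zinc, copper and iron are needed by many enzymes but are harmful when free, so cells bind, store and move them with dedicated proteins. Metallothioneins, of which MT1A is one, are small cysteine-rich proteins that bind zinc and copper, and their genes respond to zinc through the factor MTF1 and to glucocorticoids and inflammatory cytokines. Ceruloplasmin (CP) is the main copper-carrying protein of plasma, oxidises iron so that transferrin can bind it, and is made by hepatocytes as an acute phase protein. FTH1 is the heavy chain of ferritin, the shell in which cells store iron, and its synthesis is regulated in large part at translation, which an array does not read. SCARA5 is a scavenger receptor of the cell surface that binds ferritin and is known from mesenchymal cells. SLC11A1, also called NRAMP1, moves iron and manganese out of the phagosomes of macrophages and neutrophils.

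Values are log2 RMA values, so a difference of 1 is a factor of 2, and levels were not compared between genes because probes differ in brightness. The array medians ran from 5.86 to 5.93. All 8 hepatocyte markers had a probe set, with a mean over the list of 13.32 to 13.45 at -8 d, 13.11 to 13.36 at 1 d and 13.25 to 13.49 at 9 d. At 1 d against -8 d 1 of the 8 rose in limma (CPS1, by 0.12) and 4 fell (TTR by 0.32, AHSG by 0.25, APOB by 0.19 and ALB by 0.08). Of all probe sets 11.5% rose and 11.6% fell. The median change of the 8 markers was -0.14, and the part of these marker changes in those of the members was not tested. In whole biopsies, fewer cells of a type and less RNA per cell cannot be told apart. One RNA quality measure moved with the day: the 3' minus 5' difference of the EF1A control probe sets was -0.68 before calving (SD 0.12, 10 arrays), -1.07 at 1 d (SD 0.15, 10 arrays) and -0.81 at 9 d (SD 0.13, 12 arrays), and its part in the changes below was not tested. On the actin control probe sets the same difference was 3.87 on the array of CON cow 528 at 9 d and between 1.1 and 2.2 on the other arrays. Without that array the changes from -8 d to 9 d were 1.42 for MT1A, -0.07 for CP, -0.14 for FTH1, -0.99 for SCARA5 and 0.21 for SLC11A1.

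**Figure D1:**
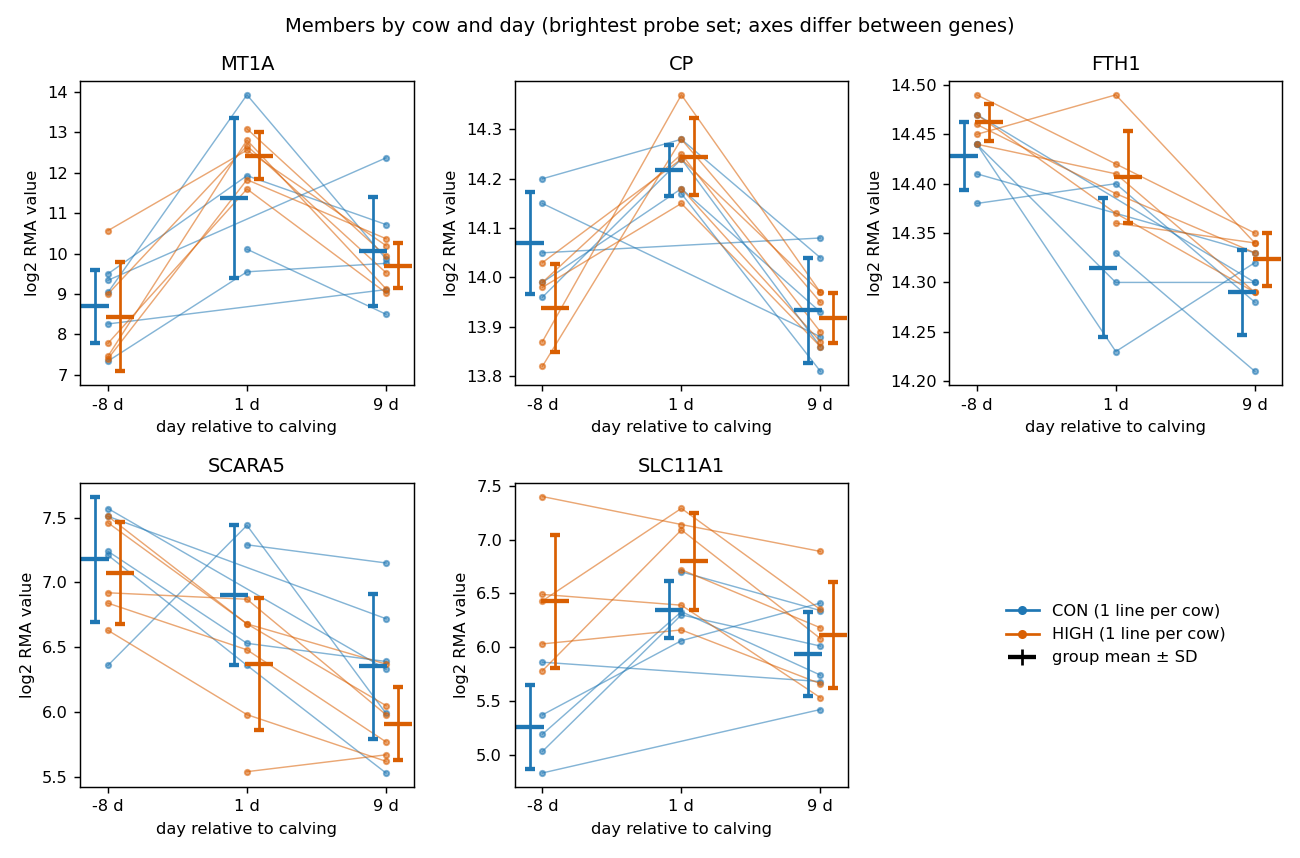
Log2 RMA value (vertical axis, a separate scale for each gene) of the brightest probe set of each gene against the day relative to calving. Each line is 1 cow, blue for CON and orange for HIGH, and the bars are group means ± SD (n = 4 to 6). MT1A and CP are highest at 1 d, FTH1 and SCARA5 go down to 9 d, and SLC11A1 in CON is lowest at -8 d.

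MT1A, the metal-binding metallothionein, was low before calving, high on the day after it and in between at 9 d, with a 10.4-fold difference between -8 d and 1 d. At -8 d the 5 CON cows had log2 values of 7.34, 8.26, 9.04, 9.34 and 9.50, and the 5 HIGH cows 7.40, 7.46, 7.78, 9.00 and 10.57. At 1 d the 4 CON cows had 9.55, 10.11, 11.93 and 13.93, and the 6 HIGH cows ran from 11.60 to 13.09 with a median of 12.615. At 9 d CON ran from 8.50 to 12.37 (median 9.815) and HIGH from 9.03 to 10.37 (median 9.735). In each diet all arrays from 1 d lay above all from -8 d, in CON by a gap of 0.05 and in HIGH by 1.03, and over both diets the days overlapped through HIGH cow 460 (10.57 at -8 d). Of all probe sets, 3.24% were higher at 1 d without overlap in CON and 3.78% in HIGH. MT1A was picked for this comparison, so nothing is read from these shares.

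Over both diets MT1A was 3.38 higher on the log2 scale at 1 d than at -8 d (SE 0.44). It was 1.33 higher at 9 d than at -8 d (SE 0.41, 2.52-fold) and lower at 9 d than at 1 d (log2 fold change -2.05, SE 0.42). Within cows, 8 of 8 animals had more at 1 d than before calving, by 1.99 to 5.35 on the log2 scale with a median of 3.745. At 9 d 9 of 10 cows were still above their own value of -8 d, and 9 of 10 had come down from 1 d. The cow that did not go down from 1 d to 9 d was CON cow 477, which went from 9.55 to 9.76. The rise to 1 d was 2.81 (SE 0.66) in CON and 3.96 (SE 0.59) in HIGH.

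MT1A varied widely between cows of 1 group: its SD within groups was 1.16, and 99.8% of all probe sets varied less. Group means ran from 8.44 in HIGH and 8.70 in CON at -8 d, through 9.70 in HIGH and 10.06 in CON at 9 d, to 11.38 in CON and 12.43 in HIGH at 1 d. Only the step from CON 9 d to CON 1 d was larger than that SD, and the ranges of all neighbours in this order overlapped.

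MT1A lies in a cluster of metallothionein genes. In the RefSeq gene table (assembly ARS-UCD2.0) the loci follow each other as MT1A, LOC768319, LOC613358, MT2A, MT3 and MT4. MT1E is a synonym there of MT1A, LOC768319 and LOC613358. Probe sets were annotated to MT1A, LOC613358, MT2A and MT3. Over the 32 arrays, the genes whose log2 values followed MT1A most closely were MT2A (Pearson r 0.93, and 0.85 after the 6 group means were removed) and LOC613358 (0.91 and 0.75). GNPNAT1, an enzyme of amino sugar synthesis, came next (0.86 and 0.59), then GPX3, the secreted glutathione peroxidase (0.83 and 0.48), and SOCS5, a suppressor of cytokine signalling (0.83 and 0.55). The arrays share cows and days. Transcripts of neighbouring metallothionein genes are alike in sequence, and whether a probe set read more than 1 of them was not tested.

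LOC613358 was 3.83 higher at 1 d than at -8 d (SE 0.48) and was higher in 8 of 8 cows. MT2A, the other widely expressed metallothionein, rose by 1.84 (SE 0.29, limma adjusted p = 2.43e-05), also in 8 of 8 cows. At 9 d 10 of 10 cows had more MT2A than before calving (0.85, SE 0.28, adjusted p = 0.0454), a call kept in 17 of the 32 fits that each left out 1 array. It fell by 0.99 from 1 d to 9 d (SE 0.28, adjusted p = 0.0158, call kept in 31 of 32 such fits), in 7 of 10 cows. In cows with all 3 days the 2 MT2A values for 9 d did not pass (1.08, adjusted p = 0.0604, and -0.87, adjusted p = 0.114). MT3, known from brain, was at -0.01 for 1 d minus -8 d (adjusted p = 0.927), and MTF1, the zinc-sensing factor, fell by 0.22 (SE 0.07, adjusted p = 0.0163). The probe sets of MT1A, LOC613358 and MT2A were thus high on the same arrays. MT1A was picked for its changes over the days, and MT2A follows it closely. The MT2A p-values are therefore no separate support for the MT1A changes.

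**Figure D2:**
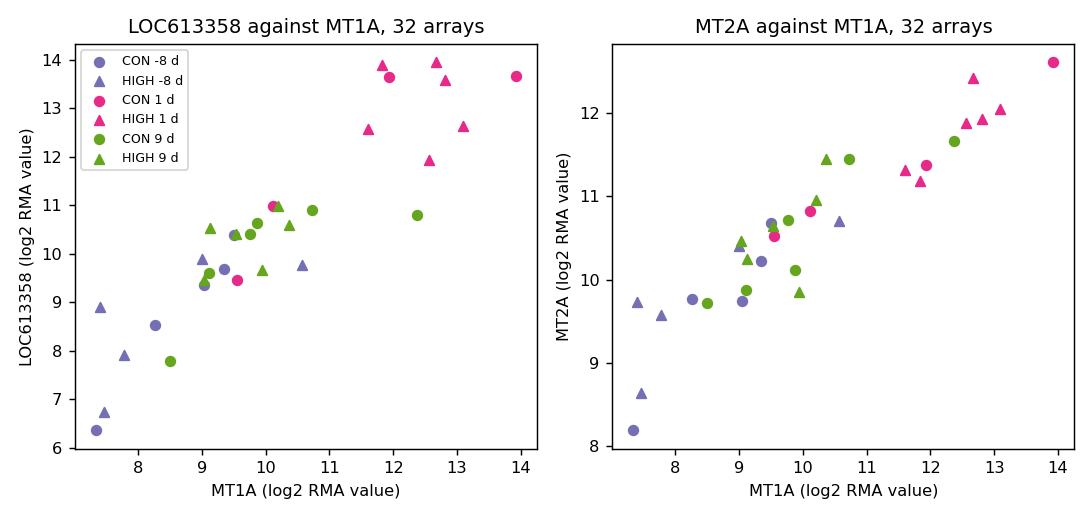
Log2 RMA values of LOC613358 (left) and MT2A (right) against MT1A on the 32 arrays, with circles for CON, triangles for HIGH and a colour for each day. Points from 1 d (pink) fill the upper right, those from -8 d (violet) the lower left, and r over the arrays is 0.91 and 0.93. The 2 CON points from 1 d with the lowest MT1A lie among those from 9 d (green).

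CP, the plasma ferroxidase, was highest at 1 d in both diets and on all 3 probe sets. On probe set 1, the brightest, CON cows had 13.96, 13.99, 14.05, 14.15 and 14.20 at -8 d and HIGH cows 13.82, 13.87, 13.98, 13.99 and 14.03. At 1 d CON cows had 14.17, 14.18, 14.24 and 14.28, and HIGH cows ran from 14.15 to 14.37 (median 14.245). At 9 d the ranges were 13.81 to 14.08 in CON (median 13.905) and 13.86 to 13.97 in HIGH (median 13.92). On this probe set all 10 arrays from 1 d lay above all 12 from 9 d. On probe set 2 the lowest array from 1 d (13.42) lay below the highest from 9 d (13.54), and on probe set 3 these were 13.15 and 13.22, so both overlapped. Over all probe sets, 0.221% were lower at 9 d than at 1 d without overlap, and this gap is a description since the choice of CP may have used it.

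Each probe set of CP went up from -8 d to 1 d in 8 of 8 cows, and each went down from 1 d to 9 d in 10 of 10. The size of the change depended on the probe set. The rise to 1 d was 0.23 (SE 0.04) on probe set 1, 0.46 (SE 0.09) on probe set 2 and 0.45 (SE 0.08) on probe set 3, that is 1.18-, 1.37- and 1.37-fold. The change from 1 d to 9 d was -0.31 (SE 0.04), -0.59 (SE 0.08) and -0.61 (SE 0.08). Only 0.196% of all probe sets were brighter than probe set 1, whose mean lay near the top of the table's range. The part of brightness in these sizes was not tested.

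From -8 d to 9 d CP differed by -0.07 (SE 0.04), -0.13 (SE 0.08) and -0.16 (SE 0.08) on the 3 probe sets, lower in 7 of 10 cows on each. On probe sets 2 and 3 it was lower in 5 of 5 CON cows and in 2 of 5 HIGH cows. Probe sets 2 and 3 followed each other over the arrays with r 0.98, and probe set 1 followed them with r 0.87 and 0.90. Group means on probe set 1 were lowest at 9 d (13.92 in HIGH and 13.93 in CON), then at -8 d (13.94 in HIGH and 14.07 in CON) and highest at 1 d (14.22 in CON and 14.25 in HIGH). The 3 lowest means differed by less than the SD within groups of 0.08, and the ranges of all neighbours overlapped.

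**Figure D3:**
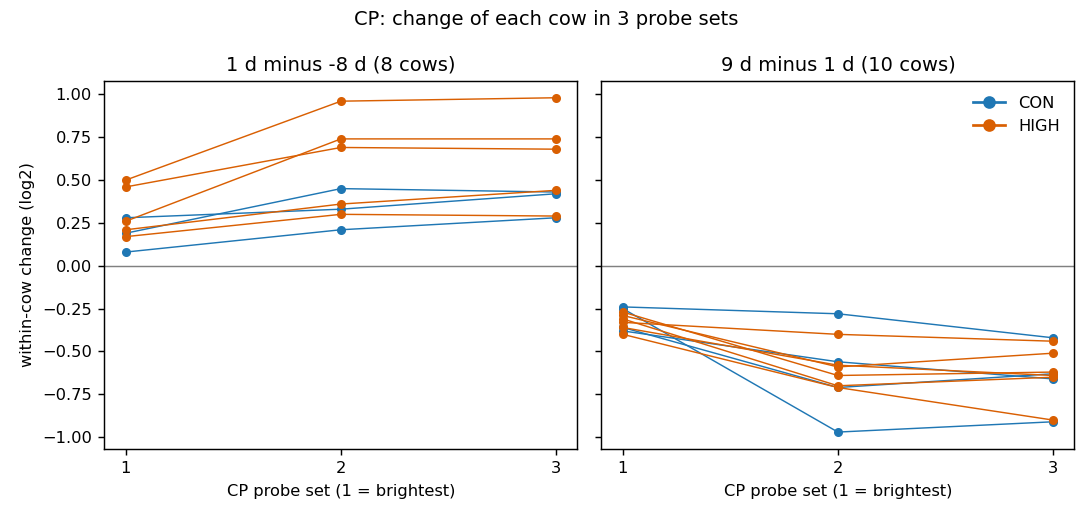
Within-cow change of CP on the log2 scale (vertical axis) for probe sets 1, 2 and 3 (horizontal axis), from -8 d to 1 d in 8 cows (left) and from 1 d to 9 d in 10 cows (right). Each line is 1 cow, blue for CON and orange for HIGH. All lines lie above 0 on the left and below 0 on the right, and probe set 1 shows the smallest changes (0.08 to 0.50 on the left).

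The genes closest to CP in pattern over the arrays were SAA4, a serum amyloid A protein of plasma (r 0.90, and 0.63 after group means were removed), MAGT1, a magnesium transporter and oligosaccharyltransferase subunit (0.90 and 0.60), and NUCB2, a calcium-binding secretory protein (0.88 and 0.58). FGB, a fibrinogen chain of the acute phase (0.86 and 0.53), and PDIA3, a disulphide isomerase of the endoplasmic reticulum (0.86 and 0.43), followed. With HP, the acute phase protein haptoglobin, CP had r 0.68 over all arrays and 0.72 within groups. HP at -8 d was highest in cow 445 among CON (14.10) and in cow 529 among HIGH (13.68), and each of these cows also had the highest CP of its group at -8 d (14.20 and 14.03). Without these 2 arrays, the CP change from -8 d to 1 d was 0.26, that of MT1A 3.35, that of FTH1 -0.09, that of SCARA5 -0.54 and that of SLC11A1 0.67. These values were computed after the HP levels had been seen.

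FTH1, the ferritin heavy chain, was among the brightest and least variable probe sets, and was slightly lower after calving. At -8 d CON cows had 14.38, 14.41, 14.44, 14.44 and 14.47, and HIGH cows 14.44, 14.45, 14.46, 14.47 and 14.49. At 1 d CON cows had 14.23, 14.30, 14.33 and 14.40, and HIGH cows ran from 14.36 to 14.49 (median 14.40). At 9 d CON ran from 14.21 to 14.33 (median 14.30) and HIGH from 14.29 to 14.35 (median 14.335). The 10 arrays from -8 d lay above the 12 from 9 d without overlap, whereas those from 1 d overlapped with both. Of all probe sets, 0.146% were lower at 9 d than at -8 d without overlap, and 4.25% passed the test as lower. FTH1 was picked for this comparison, so nothing is read from its place among them.

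FTH1 went down in 10 of 10 cows from -8 d to 9 d, by 0.08 to 0.18. In the limma fit over all arrays the FTH1 change was -0.14 (SE 0.02), or 0.909-fold, and was -0.14 in each diet. Between -8 d and 1 d it went down in 6 of 8 cows (-0.08, SE 0.03). From 1 d to 9 d it went down in 8 of 10 cows, up in CON cow 477 and not at all in CON cow 483 (-0.06, SE 0.02). Only 0.0708% of all probe sets were brighter and 0.0333% less variable within groups. The part of brightness in the size of its changes was not tested. Group means ordered from 14.29 (CON at 9 d), 14.315 (CON at 1 d), 14.32 (HIGH at 9 d) and 14.41 (HIGH at 1 d) to 14.43 and 14.46 (CON and HIGH at -8 d). The means of HIGH at 9 d and at 1 d were the only neighbours whose ranges did not overlap (lower at 9 d than at 1 d without overlap in HIGH were 1.46% of all probe sets).

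FTL, the light chain that forms the same shell, had a change of 0.07 from -8 d to 1 d (SE 0.03, adjusted p = 0.112) and went up in 7 of 8 cows. Its group means were 14.35 in CON and 14.33 in HIGH at -8 d, and 14.37 and 14.39 at 9 d. These values also lie near the top of the array's range, and the part of brightness was not tested. Over all arrays FTH1 and FTL had r 0.12, and after the group means were removed r 0.64. Arrays with more FTH1 for their group tended to have more FTL, while the day means of the 2 chains did not run together. Whether the r within groups lay with the cow or with the array was not tested. The genes most like FTH1 over the arrays were PCBP2 (r 0.79 and 0.44 within groups), an RNA-binding protein that also carries iron to ferritin, IGFBP3, a carrier of insulin-like growth factors (0.78 and 0.29), RPS27, a ribosomal protein (0.74 and 0.43), CTNNBL1, a splicing factor (0.73 and 0.20), and INPP1, an inositol phosphatase (0.73 and 0.47).

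SCARA5, the ferritin-binding scavenger receptor, was lower on each later day. At -8 d CON cows had 6.36, 7.21, 7.24, 7.51 and 7.57, and HIGH cows 6.63, 6.84, 6.92, 7.46 and 7.51. At 1 d CON cows had 6.36, 6.53, 7.29 and 7.44, and HIGH cows ran from 5.54 to 6.87 (median 6.58). At 9 d CON ran from 5.53 to 7.15 (median 6.36) and HIGH from 5.62 to 6.37 (median 5.875). In HIGH all 6 arrays from 9 d lay below all 5 from -8 d, which 1.23% of all probe sets did, whereas in CON the days overlapped. SCARA5 was picked for its change to 9 d.

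From -8 d to 9 d SCARA5 went down in 10 of 10 cows, by 0.37 to 1.68. In the limma fit over all arrays the change was -0.995 (SE 0.17, 0.502-fold). The change was -0.85 (SE 0.24) in CON and -1.14 (SE 0.24) in HIGH. Between -8 d and 1 d it went down in 7 of 8 cows (-0.47, SE 0.18), and between 1 d and 9 d in 9 of 10 (-0.52, SE 0.17). The cow that went up from -8 d to 1 d was CON cow 445, by 1.08. This cow had the lowest SCARA5 of its group at -8 d (6.36) and, as given above, the highest HP. HIGH cow 529, also highest in HP in its group, went the other way with 7.46, rank 2 of 5 from the highest. The 12 stellate cell and fibroblast markers had list means of 6.595 to 7.21 at -8 d and 6.37 to 7.595 at 9 d, and 0 of 12 passed the test for 9 d against -8 d in either direction, where 9.44% of all probe sets passed. At an unadjusted p under 0.05 in the limma fit 1 of the 12 was counted, against 22.4% of all probe sets. Of 7 erythroid markers 6 had a probe set, and 2 of 6 fell from -8 d to 9 d (HBB by 1.59, adjusted p = 1.24e-03, and HBA by 0.23, adjusted p = 0.0353, in limma), while ALAS2, SLC4A1, AHSP and HBM did not pass and had group means of 3.09 to 5.26. The list means ran from 4.24 to 5.14 at -8 d and from 4.20 to 4.56 at 9 d, and the part of these cells in the SCARA5 values was not tested.

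The SD of SCARA5 within groups was 0.47, and 96.9% of probe sets varied less. Group means were 5.91 in HIGH and 6.35 in CON at 9 d, 6.37 in HIGH and 6.91 in CON at 1 d, and 7.07 in HIGH and 7.18 in CON at -8 d. In this order only the step from HIGH 1 d to CON 1 d exceeded that SD, and the ranges of all neighbours overlapped. Closest in pattern were TOM1L1, a trafficking adaptor (r 0.72 and 0.70 within groups), HOMER2, a scaffold protein (0.71 and 0.58), POSTN, the matrix protein periostin (0.71 and 0.70), TMEM254, a membrane protein (0.70 and 0.45), and SLCO4C1, an organic anion transporter (0.68 and 0.42). TOM1L1 and POSTN kept nearly the same r within groups.

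SLC11A1, the metal transporter of phagosomes, was the member with the widest gap between diets, and that gap was before calving. At -8 d CON cows had 4.83, 5.03, 5.19, 5.37 and 5.86, and HIGH cows 5.78, 6.03, 6.43, 6.49 and 7.40. At 1 d CON cows had 6.06, 6.30, 6.33 and 6.70, and HIGH cows ran from 6.16 to 7.29 (median 6.905). At 9 d CON ran from 5.42 to 6.41 (median 5.875) and HIGH from 5.53 to 6.89 (median 6.13). The 2 diets overlapped at -8 d by 1 cow of each, CON cow 528 (5.86) and HIGH cow 439 (5.78), and overlapped broadly later.

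SLC11A1 was 0.71 higher at 1 d than at -8 d (SE 0.17, 1.64-fold), in 6 of 8 cows. The change was 1.05 in CON (SE 0.26, 3 of 3 cows) and 0.37 in HIGH (SE 0.23, 3 of 5 cows). From 1 d to 9 d it was lower in 9 of 10 cows (-0.54, SE 0.16). In CON all 4 arrays from 1 d lay above all 5 from -8 d, as did 3.24% of all probe sets. Between -8 d and 9 d the cows split, with 4 of 5 CON cows higher at 9 d and 4 of 5 HIGH cows lower. Group means in CON were 5.26 at -8 d, 5.93 at 9 d and 6.35 at 1 d, and in HIGH 6.115 at 9 d, 6.43 at -8 d and 6.80 at 1 d. In the order of all 6 means only the step up from CON -8 d exceeded the SD within groups of 0.45.

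Some markers of the cells that carry SLC11A1 moved on some of the same arrays, and others did not. Of 11 neutrophil markers 8 had a probe set, and S100A8, S100A9, S100A12 and LTF rose at 1 d (4 of 8), where 11.5% of all probe sets rose. MMP9, MPO, ELANE and CAMP did not pass at 1 d and had group means of 3.565 to 5.22 over the 3 days. The mean of all 8 ran from 5.35 to 5.84 in CON and 5.57 to 5.85 in HIGH at -8 d, from 6.02 to 6.63 and 6.14 to 7.21 at 1 d, and from 5.73 to 6.39 and 5.61 to 6.29 at 9 d. Of 13 Kupffer cell and macrophage markers 10 had a probe set. Their mean ran from 9.69 to 10.05 in CON and 10.03 to 10.39 in HIGH at -8 d. There 0 of 10 passed the limma diet test, with a median difference of 0.26. In the same fit 2 of 10 had an unadjusted p under 0.05, against 4.27% of all probe sets. From -8 d to 1 d 1 of these 10 rose and 1 fell. The part of either cell type in the SLC11A1 values was not tested.

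The genes most like SLC11A1 were HMOX1, the inducible haem oxygenase (r 0.71, and 0.64 within groups), LTF, the iron-binding lactoferrin (0.67 and 0.43), PTAFR, the receptor for platelet-activating factor (0.67 and 0.55), DNASE2, a lysosomal nuclease (0.66 and 0.58), and SLC17A9, a vesicular nucleotide transporter (0.65 and 0.34). These r values, like those above, describe the same 32 arrays and carry no test.

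The diet comparison asks whether energy intake before calving left a difference in these genes on each day. For diet, 0 of 24016 probe sets passed limma's adjusted threshold at -8 d (1025 had an unadjusted p under 0.05), 1 passed at 1 d (0.00416% called, 2013 unadjusted) and 0 at 9 d (813 unadjusted), and that 1 was no member. MT1A differed (HIGH minus CON) by -0.16 at -8 d (95% interval -1.50 to 1.17, adjusted p = 1.00), 0.99 at 1 d (-0.37 to 2.36, adjusted p = 0.728) and -0.36 at 9 d (-1.58 to 0.87, adjusted p = 0.998). The value at 1 d rested on single arrays: it was 0.43 without CON cow 477 at 1 d, 0.63 without CON cow 510 and 1.82 without CON cow 483. Without the 2 arrays highest in HP the difference of MT1A at -8 d was 0.29. For MT1A the intervals still allow a difference of more than 2-fold on each day.

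FTH1 differed between the diets by 0.03, 0.09 and 0.03 on the 3 days (adjusted p = 1.00, 0.547 and 0.998), and each interval stayed within -0.04 and 0.17. SCARA5 was lower in HIGH by 0.16 at -8 d, 0.56 at 1 d and 0.44 at 9 d (log2 differences -0.16, -0.56 and -0.44, adjusted p = 1.00, 0.593 and 0.998), with intervals of -0.71 to 0.39, -1.12 to -0.005 and -0.94 to 0.06. In cows with all 3 days the SCARA5 difference at -8 d was 0.14, and without the 2 arrays highest in HP it was -0.47.

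CP on probe set 1 differed by -0.13 at -8 d (interval -0.24 to -0.02), 0.02 at 1 d (-0.09 to 0.14) and -0.02 at 9 d (-0.12 to 0.09). The difference at -8 d was -0.17 (interval -0.43 to 0.10) on probe set 2 and -0.16 (-0.42 to 0.09) on probe set 3. SLC11A1 was higher in HIGH by 1.15 at -8 d (interval 0.63 to 1.68, 2.22-fold), 0.47 at 1 d (-0.07 to 1.00) and 0.18 at 9 d (-0.30 to 0.66). Since 0 probe sets passed at -8 d, neither the CP nor the SLC11A1 difference there passed over all probe sets. The choice of these 2 genes may have used their diet values. Their intervals are therefore a description, and nothing is read from whether an interval includes 0.

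**Figure D4:**
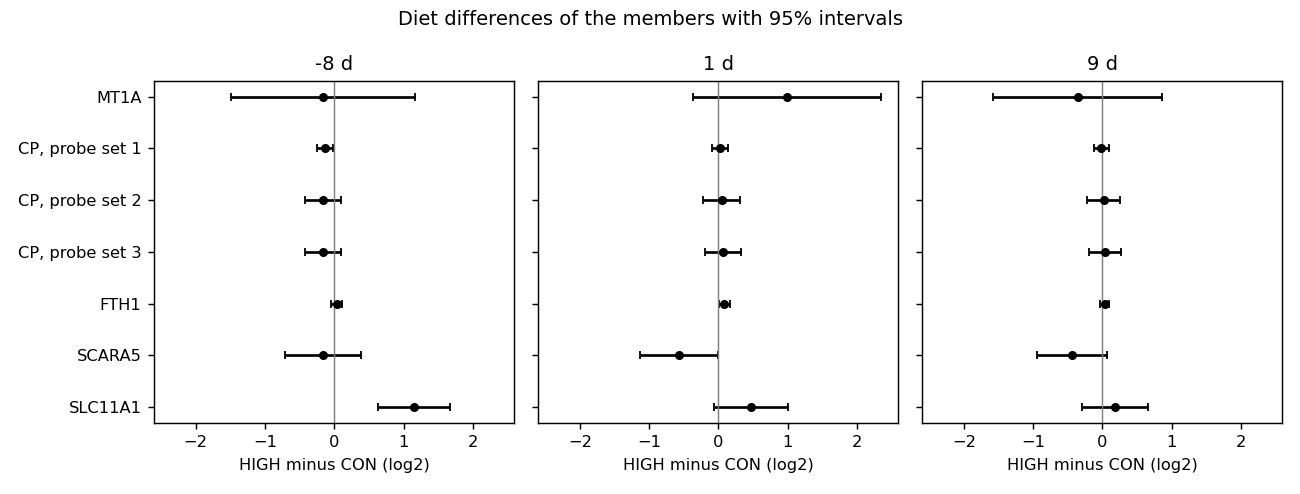
HIGH minus CON on the log2 scale (horizontal axis) on each of the 3 days for the 7 probe sets, with 95% intervals from the limma fit as bars. Intervals of MT1A are the widest, those of CP and FTH1 the narrowest, and SLC11A1 at -8 d (1.15) lies farthest from 0. The intervals of CP and SLC11A1 are a description, since the choice of these genes may have used the values.

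Whether a diet difference changed over the days was tested as diet by time, where 0 probe sets passed for 1 d against -8 d, 9 d against -8 d or 9 d against 1 d (1723, 789 and 1629 had an unadjusted p under 0.05 in limma). The MT1A difference at 1 d minus that at -8 d was 1.16 (SE 0.88, adjusted p = 0.828; 0.57 without CON cow 477 at 1 d and 2.01 without CON cow 483), that of SCARA5 was -0.40 (SE 0.36, adjusted p = 0.860) and that of FTH1 0.05 (SE 0.05, adjusted p = 0.866). For SLC11A1 the diet difference shrank by 0.68 to 1 d (log2 value -0.68, SE 0.35) and by 0.97 to 9 d (-0.97, SE 0.33), and for CP probe set 1 it moved by 0.15 (SE 0.08) and 0.12 (SE 0.07).

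Whether cows with a larger change of 1 member from -8 d to 1 d also had a larger change of another was computed for the 10 pairs of members over 8 cows. The closest pair was MT1A and CP, with Pearson r 0.70 (exact permutation p = 0.0565, adjusted over 10 pairs 0.565) and Spearman rho 0.81 (exact permutation p = 0.0218, adjusted 0.218). Without the 2 cows farthest from the median MT1A change, r was 0.50 over 6 cows. FTH1 and SCARA5 had r 0.51 (exact permutation p = 0.218, adjusted 0.842), and 0 of 10 pairs passed after adjustment. The r of CP and SCARA5 ran from -0.33 to 0.91 when 1 cow at a time was left out.

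The other genes of metal handling were taken from 9 lists that hold 123 further genes, of which 81 had a probe set. HAMP, SLC40A1 and ATP7B were not analysed here. At 1 d against -8 d, 21 of 81 rose and 16 fell. Counting 1 probe set per named gene, 16.5% of all genes rose and 12.3% fell (over all probe sets 11.5% and 11.6%). These shares are the base for the counts of each list at 1 d below, whose genes were named for their small p. At 9 d against -8 d 6 rose and 1 fell (7.79% and 5.08% of genes, 5.18% and 4.25% of probe sets), and at 9 d against 1 d 10 rose and 14 fell (7.44% and 10% of genes, 6.11% and 6.99% of probe sets). The median changes of the 81 were 0.02, 0.01 and 0.00. With 1 probe set per named gene the medians over all genes were 0.0004, -0.006 and -0.007. Over all probe sets the medians were -0.02, -0.02 and 0.00. For diet and diet by time 0 of 81 passed in the limma fit, as for nearly all genes. At an unadjusted p under 0.05 the diet counts were 5 at -8 d, 8 at 1 d and 4 at 9 d, against 4.27%, 8.38% and 3.39% of all probe sets. The diet by time counts were 0 to 4, against 3.29% to 7.17% of all probe sets.

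Of 17 zinc transporters 5 rose and 2 fell at 1 d. SLC39A7, which releases zinc from the secretory pathway, rose by 0.45 (SE 0.09, adjusted p = 2.56e-04), SLC30A1, the zinc exporter of the cell surface, by 0.44 (SE 0.09, adjusted p = 5.36e-04), and SLC39A5 by 0.31 (adjusted p = 1.06e-03). SLC39A8, an importer of zinc and manganese, fell by 0.42 (SE 0.08, adjusted p = 1.18e-04). At 9 d against -8 d 0 of 17 passed in the limma fit, and 5 had an unadjusted p under 0.05, against 22.4% of all probe sets.

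Of 9 genes of iron and haem uptake beside SCARA5 and SLC11A1, 3 rose and 3 fell at 1 d. TFRC, the transferrin receptor, was between 4.33 and 5.01 at -8 d and between 5.08 and 5.88 at 1 d, without overlap (as 0.745% of all probe sets), and rose by 0.77 (SE 0.09, adjusted p = 2.88e-07) in 8 of 8 cows. It fell by 0.73 to 9 d (SE 0.09, adjusted p = 5.24e-07) in 10 of 10. STEAP3, the endosomal ferrireductase, rose by 0.63 (SE 0.10, adjusted p = 3.81e-05), and SLC11A2, the relative of SLC11A1 that moves iron out of endosomes, by 0.42 (SE 0.11, adjusted p = 3.91e-03). STEAP2 fell by 0.31 (SE 0.09, adjusted p = 9.17e-03). STEAP3 was still higher at 9 d than at -8 d (0.36, SE 0.10, adjusted p = 0.0149). That call was lost with the most variable probe set (0.34, adjusted p = 0.273), the mean of its probe sets (0.35, adjusted p = 0.0825) or cows with all 3 days alone (0.30, adjusted p = 0.118), and the call at 1 d with the most variable one (0.50, adjusted p = 0.0534).

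Of 4 genes of iron storage beside FTH1, 0 rose and 2 fell at 1 d. PCBP2 fell by 0.24 at 1 d (SE 0.05, adjusted p = 1.35e-03) and was lower by 0.27 at 9 d (log2 fold change -0.27, SE 0.05, adjusted p = 4.66e-04). NCOA4, the receptor for the breakdown of ferritin, fell by 0.15 (adjusted p = 0.0497), a call kept in 8 of 32 fits that left out 1 array. Of 4 plasma carriers beside CP, 2 rose and 1 fell: LTF rose by 1.54 (SE 0.34, adjusted p = 1.11e-03), HPX, which binds free haem, by 0.28 (SE 0.06, adjusted p = 6.21e-04), and TF, transferrin, fell by 0.10 (SE 0.02, adjusted p = 1.89e-03). HPX fell by 0.41 from 1 d to 9 d (SE 0.06, adjusted p = 5.17e-06). LTF is also on the neutrophil list, and TF lies near the top of the array's range.

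Of 9 genes of iron sensing 3 rose and 1 fell at 1 d. BMPR1A, a receptor for bone morphogenetic proteins, rose by 0.36 (SE 0.06, adjusted p = 7.62e-05) and BMPR2 by 0.23 (SE 0.07, adjusted p = 0.0116) on its brightest probe set. On the most variable probe set of BMPR2 the direction turned (-0.13, adjusted p = 0.399), the mean of its probe sets gave 0.04 (adjusted p = 0.571), and cows with all 3 days gave 0.19 (adjusted p = 0.0838). ACO1, which binds iron-responsive elements of ferritin and TFRC mRNA, fell by 0.12 (adjusted p = 0.0373, kept in 21 of 32 such fits). Of 11 genes of haem synthesis and breakdown 2 rose and 2 fell. HMOX2, the constitutive haem oxygenase, rose by 0.34 (SE 0.07, adjusted p = 3.88e-04), and the synthesis enzymes ALAD and UROD fell by 0.30 and 0.23 (adjusted p = 5.90e-04 and 6.80e-04), the second not on the most variable UROD probe set (-0.06, adjusted p = 0.507).

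Of 10 copper genes 2 rose and 2 fell at 1 d, where 16.5% of all named genes rose and 12.3% fell. SLC31A1, the copper importer, fell by 0.16 (SE 0.04, adjusted p = 4.92e-03) and rose by 0.21 from 1 d to 9 d (SE 0.04, adjusted p = 3.37e-04). SOD1, a copper and zinc enzyme, fell by 0.07 (adjusted p = 0.0331, kept in 24 of 32), and ATOX1, a copper chaperone, rose by 0.16 (adjusted p = 0.0488, kept in 10 of 32). SOD3, the secreted superoxide dismutase, was at -0.25 at 1 d without passing and rose by 0.67 from -8 d to 9 d (SE 0.17, adjusted p = 8.58e-03). Of 14 genes of iron-sulphur cluster assembly 3 rose and 2 fell, among them CIAO2B (0.33, adjusted p = 2.64e-04), NUBP2 (0.33, adjusted p = 2.50e-03) and the scaffold ISCU, which fell by 0.17 (adjusted p = 7.39e-03) on its brightest probe set. On the most variable one ISCU was at 0.07 (adjusted p = 0.523), and the means of probe sets did not pass for ISCU (-0.05, adjusted p = 0.412) or CIAO2B (0.14, adjusted p = 0.0523). NUBP2 and NFS1, the cysteine desulphurase, were higher at 9 d than at -8 d by 0.38 and 0.27 (adjusted p = 9.90e-04 and 2.52e-03).

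**Figure D5:**
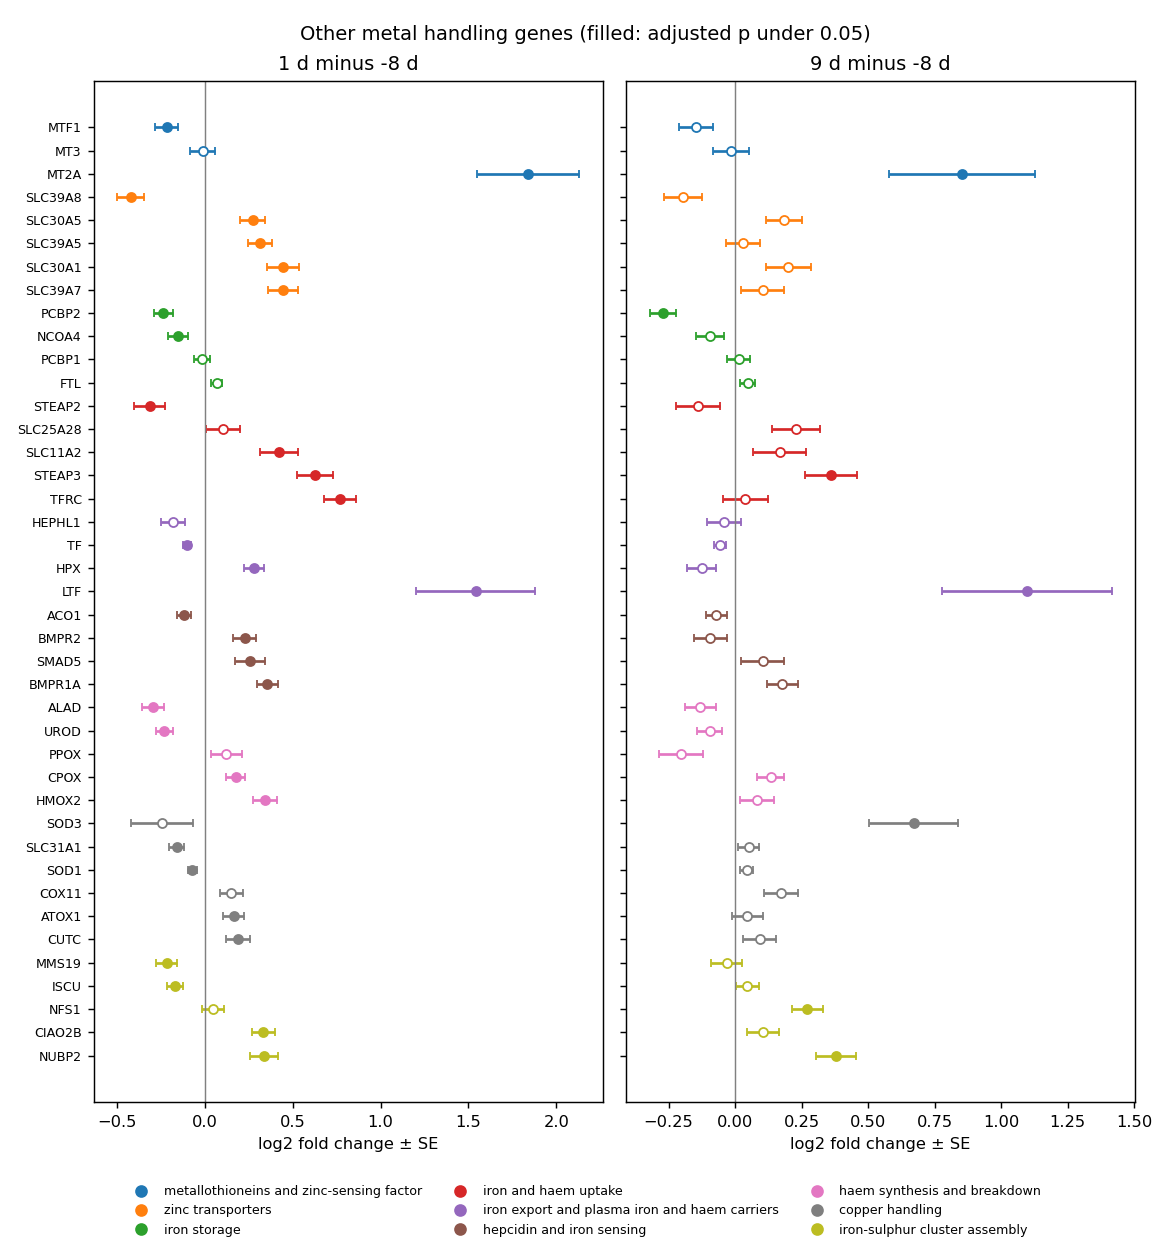
Log2 fold change ± SE (horizontal axis) of the other metal handling genes named by a fixed rule, for 1 d minus -8 d (left) and 9 d minus -8 d (right, a different scale), coloured by list. The rule took the smallest p of each list in these 2 comparisons. Filled points passed the limma test (adjusted p under 0.05), and their number does not show how much of a list changed. MT2A (1.84) and LTF (1.54) lie farthest to the right at 1 d, and SLC39A8 (-0.42) farthest to the left.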

How the data were processed

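The deposited log2 values are the authors' own: per the submitters' processing notes they used Affymetrix Expression Console 1.1 with RMA. That method subtracts background, gives all arrays 1 quantile distribution and summarises probes per probe set. A change is therefore measured against the majority of probe sets. Changes at the bright and dim ends can come out too small, which was not tested here. No batch or scan date is given in the sources used here. Precision is limited by how many arrays there were.

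From 24128 probe sets, 112 controls were dropped. The other 24016 entered every test, with no filter on level. The platform annotation, updated through gene identifiers to the RefSeq table, gave 13292 probe sets 1 symbol, 86 several and 10638 none. All probe sets of CP are given, and every other gene was read from its brightest one.

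In limma 3.58.1 (R 4.3.3), each of the 6 groups had its mean, cow was a random block (correlation 0.138), and eBayes used a mean-variance trend. Tests were two-sided, with Benjamini-Hochberg adjustment over 24016 probe sets per contrast and a threshold of 0.05. The pairing of arrays comes from the cow numbers in the labels. After group means were removed, arrays of 1 cow had a mean r of 0.323 (28 pairs, lowest 0.229), and those sharing only a replicate number of the titles -0.0132 (57 pairs). The fit was tested on simulated data.

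Named were all probe sets of the 5 genes and the 5 genes with the highest r to each. Of each list, up to 4 genes with the smallest p for 1 d against -8 d and up to 2 for 9 d against -8 d were named. HP was added as a comparator after its values were seen. The members, lists and rules were chosen with earlier results of these data known. Alternatives were other choices of probe set, other normalisation, other variance models, other forms of the replicate block, bright probe sets alone, cows with all 3 days, and each array left out in turn. Fits without the 2 arrays at -8 d with the highest HP were chosen after seeing the data.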

Additional observations from a re-analysis of the deposited data

How the results depend on the processing

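The directions of all 15 member changes over the days held in every fit, and with 1 array left out those of MT1A from -8 d to 1 d stayed between 2.96 and 3.67. CP sizes depended on the probe set: with the most variable one the changes were 0.45 (1 d minus -8 d), -0.16 (9 d minus -8 d) and -0.61 (9 d minus 1 d), and with the mean of all 3 the first and last were 0.38 and -0.50. Of the members' values, only differences small beside their errors changed sign. For diet these were CP at 9 d (0.037 with the most variable probe set, 0.013 with the mean), SCARA5 at -8 d (0.14 in cows with all 3 days) and, without the 2 arrays highest in HP, MT1A at -8 d (0.29). For diet by time at 9 d against -8 d, FTH1 came to 0.0069 with arrays centred on their median, 0.0027 after a further quantile step and 0.0064 without the 2 arrays, and SCARA5 to 0.025 without them.

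With 1 array left out at a time, the diet difference of MT1A ran from -0.67 to 0.10 at -8 d, from 0.43 to 1.82 at 1 d and from -0.63 to 0.089 at 9 d, and its diet by time value at 9 d from -0.46 to 0.31. The diet difference of CP ran from -0.0030 to 0.041 at 1 d and from -0.038 to 0.015 at 9 d, and the diet by time value of FTH1 from -0.016 to 0.012. MT3 at 1 d ran from -0.050 to 0.024 and was 0.0059 after a further quantile step. With the most variable probe set, BMPR2 at 1 d was -0.13 and ISCU 0.068, and from 1 d to 9 d ISCU was -0.074 and UROD -0.023, so the directions of BMPR2 and ISCU above rest on the brightest probe set. Of 655 values of single genes under settings other than leaving out 1 array, 584 kept their direction and side of the threshold, 64 lost a call, 2 gained one and 5 changed sign. Apart from MT3, FTL and SOD3 at 1 d, these values belong to results that passed in the main fit, so few could gain a call.

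Of the 81 other genes, 10 (not 16) fell at 1 d, and from 1 d to 9 d 5 (not 10) rose and 9 (not 14) fell, when only cows with all 3 days were used, which are fewer samples. From -8 d to 9 d 11 (not 6) rose with bright probe sets alone. The count that fell there was 1, and became 3 with bright probe sets alone, 2 after a further quantile step and 1 to 2 with 1 array left out. As to the replicate block, cow as a fixed block gave 3 there, and no other count of calls moved by over 1.5 times with this pairing. At 1 d ACO1, NCOA4 and SOD1 lost their calls with cow as a fixed block (adjusted p = 0.0527, 0.0736 and 0.0898). The cause of these moves was not tested.

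Whether correlations of within-cow changes kept their sign with 1 cow left out depended on the pair. The sign held for MT1A and CP (r 0.54 to 0.79), FTH1 and SCARA5 (0.28 to 0.78), and MT1A and SLC11A1 (-0.62 to -0.046). For the other pairs it rested on single cows. With 1 cow left out, r ran from -0.029 to 0.54 (MT1A and FTH1), -0.37 to 0.43 (MT1A and SCARA5), -0.23 to 0.29 (CP and FTH1), -0.33 to 0.91 (CP and SCARA5), -0.68 to 0.10 (CP and SLC11A1), -0.44 to 0.083 (FTH1 and SLC11A1) and -0.29 to 0.34 (SCARA5 and SLC11A1). The r of CP and FTH1 was 0.042 with the mean of probe sets, and that of FTH1 and SLC11A1 0.35 without the 2 cows farthest from the median.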
